A study of Mus musculus with 18 samples.

Results

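Adult mouse cardiomyocytes with 2 nuclei were compared with adult cardiomyocytes with 1 nucleus. The members were the 3 adult binucleated and the 3 adult mononucleated libraries, 6 of the 18 libraries of the series, and all 12048 listed genes were compared. The hearts came from Mlc2vcre:R26REYFP mice, whose cardiomyocytes carry a Cre recombinase under the promoter of Mlc2v (also called Myl2), a myosin light chain of ventricular muscle, and a Cre-dependent yellow fluorescent protein at the Rosa26 locus. Both classes share these alleles, no agent was given to either class according to the labels, and they give no age beyond "adult". Cells of both classes were separated by flow cytometry and collected in Trizol-LS; the labels do not say how nuclei were counted in the sort, whether hearts were pooled, or whether libraries with the same replicate number came from the same hearts. The other 12 libraries, 3 of each class at P7 (the first postnatal week) and 3 of each class at E18.5 (shortly before birth), entered the fit and were used for the comparison across ages. The question of the series was which transcripts go with the different capacity of both classes to proliferate.

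A cardiomyocyte becomes binucleated when it replicates its DNA and divides its nucleus without dividing the cell. In the mouse this happens mainly in the first weeks after birth, and most ventricular cardiomyocytes of an adult mouse are binucleated. The mononucleated cells that remain have drawn interest because cardiomyocytes that complete cell division are sought among them. Mononucleated myocytes are also frequent in the atria and in the conduction system, the specialised myocytes that start and spread the heartbeat. In bulk libraries, fewer cells of a type and less RNA per cell cannot be told apart.

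The 6 adult libraries held 16927731 to 20946659 recovered read counts (mononucleated) and 17644666 to 20278587 (binucleated). The deposited log2 values were turned back into whole read counts, which are given below per library in the order of replicates 1, 2 and 3. Fold changes and log2 differences come from the deposited log2 values, binucleated minus mononucleated, with the standard error (SE) of the fit to all 18 libraries. The label was checked against cardiomyocyte markers: all 10 cardiomyocyte markers were measured, their median log2 fold change was 0.02, and their summed normalised read count ranged from 836266 to 900781 over the mononucleated class and from 872442 to 876539 over the binucleated class. Replicates of 1 adult group correlated at 0.970 to 0.983 across genes. The first and second principal components of the adult libraries (29.5% and 26.5% of the variance) followed single libraries and replicate numbers. The classes were apart on the third, with mononucleated scores of -25.8, -4.78 and -23.2 and binucleated scores of 17.6, 16.6 and 19.6.

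Few genes passed the test between adult binucleated and mononucleated cells, which does not show that the other genes were alike. Of 12048 genes 11 passed the limma test at an adjusted p of 0.05 (0.0913% of those tested), 10 lower in binucleated cells (0.083%) and 1 higher (0.0083%). The 10 lower genes were the mitotic genes Top2a, Cenpf, Aspm and Knstrn, the imprinted gene Ndn, the guidance cue Slit2, the metabolic genes Psat1 and Pdk3, and the signalling genes Pak3 and Lpar3. The higher gene was Pimreg. In all 11 the 3 values of a class did not overlap those of the other and all 3 same-numbered differences had the same sign. These genes were called from the same 6 libraries, so this adds no support. Of all genes 3.74% lay apart in the lower and 2.51% in the higher direction. All 3 differences were negative in 12.1% and positive in 11.1%. The median log2 fold change of all genes was 0.0033, and 301 genes had an unadjusted limma p under 0.05, 238 of them lower and 63 higher. A share of 0.05 of all genes is 602. With the replicate number as a block in the fit to all 18 libraries, 25 genes passed (0.208%), 24 lower and 1 higher. Of these 25, 9 were among the 11. The count of 11 rests on the spread shared with the younger libraries: in the adult libraries alone 0 genes passed by limma without the replicate number as a block (296 at an unadjusted p under 0.05) and 8 with it, of which only Slit2 and Ndn were among the 11. The other 6 were Nppa, Casq1, Ucp2, Cyp4b1, Cntn2 and Acta2, all lower and described below (limma adjusted p 0.00702 to 0.0376, n = 3 per class). With voom precision weights on the counts 0 passed (120 at an unadjusted p under 0.05). Without mononucleated replicate 2 only Top2a and Ndn passed.

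The promoters of the mitotic genes among the 10 are shown because these genes had lower counts together and because CCAAT boxes (CCAAT), cell cycle homology regions (TTTGAA) and E2F elements (GCGGGAA) are known elements of promoters active in the cell cycle. Each line is the 250 bases upstream of the RefSeq start site on GRCm38.p6, 5′ to 3′ on the gene's strand, with a match to any of the 3 motifs on either strand in capitals.
Top2a (chr11:99024190-99024439, minus strand): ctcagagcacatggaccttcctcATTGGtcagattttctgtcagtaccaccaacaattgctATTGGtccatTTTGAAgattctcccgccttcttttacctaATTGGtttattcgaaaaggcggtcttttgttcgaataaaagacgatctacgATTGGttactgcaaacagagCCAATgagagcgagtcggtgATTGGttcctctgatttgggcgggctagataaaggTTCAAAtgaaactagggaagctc
Cenpf (chr1:189688087-189688336, minus strand): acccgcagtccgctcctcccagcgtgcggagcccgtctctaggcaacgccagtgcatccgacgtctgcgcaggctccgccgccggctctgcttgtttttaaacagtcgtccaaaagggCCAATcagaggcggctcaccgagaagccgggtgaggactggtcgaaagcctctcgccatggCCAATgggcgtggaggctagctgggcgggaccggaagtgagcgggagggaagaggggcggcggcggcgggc
Aspm (chr1:139454523-139454772, plus strand): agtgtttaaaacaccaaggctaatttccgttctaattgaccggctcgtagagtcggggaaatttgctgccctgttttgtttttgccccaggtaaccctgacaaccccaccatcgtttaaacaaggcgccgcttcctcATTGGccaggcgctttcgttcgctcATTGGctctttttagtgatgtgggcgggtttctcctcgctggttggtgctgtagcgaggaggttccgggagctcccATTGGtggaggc
Knstrn (chr2:118813753-118814002, plus strand): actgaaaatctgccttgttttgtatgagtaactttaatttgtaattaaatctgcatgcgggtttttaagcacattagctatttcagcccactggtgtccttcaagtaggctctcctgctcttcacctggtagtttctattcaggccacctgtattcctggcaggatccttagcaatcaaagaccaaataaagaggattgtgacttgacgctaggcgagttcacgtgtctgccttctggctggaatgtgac
CCAAT matched in 3 of these 4 windows, 6 times in Top2a, 2 times in Cenpf and 3 times in Aspm. TTTGAA matched 2 times in Top2a and not in the others, and GCGGGAA matched in 0 of the 4. Among 32851 windows of the same length, 33.8% held CCAAT, 16% TTTGAA and 3.82% GCGGGAA. None of the 3 motifs contains another, and a match is a description of the letters and not a site. The promoter table held 4 of the 5 mitotic genes searched; Pimreg had no entry.

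The mitotic genes that were lower had few reads in the adult, apart from Cenpf. Top2a (ENSMUSG00000020914), the topoisomerase that untangles sister chromatids, had 29, 33 and 22 counts in mononucleated and 8, 6 and 7 in binucleated libraries. The lowest mononucleated library lay well above the highest binucleated one, and the gene was 3.81-fold lower (log2 difference -1.93 ± 0.23 SE with 3 libraries per class, limma adjusted p = 0.00193). Cenpf (ENSMUSG00000026605), a large kinetochore and nuclear matrix protein, had 1692, 1126 and 1496 counts in mononucleated and 735, 809 and 810 in binucleated libraries. It was 1.82-fold lower (log2 difference -0.87 ± 0.15 SE with 3 libraries per class, limma adjusted p = 0.0333). Its limma adjusted p rose to 0.0505 once the replicate number entered the fit as a block. In the adult libraries alone its limma adjusted p was 0.254 (unadjusted 0.00011) without the block and 0.0517 with it, so it did not pass there.

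Knstrn, a spindle and kinetochore adaptor, had 10, 10 and 14 counts against 4, 1 and 4. Aspm, a spindle pole protein, had 7, 3 and 2 counts against 0, 1 and 0. Their limma adjusted p were 0.0291 and 0.0405 with n = 3 per class, and over the classes the count ratio of mononucleated to binucleated was 3.8 for Knstrn (95% exact interval 1.79 to 9.01) and 12.1 for Aspm (1.79 to 516). These intervals cover counting error only. Pimreg, a mitotic regulator of chromosome segregation, went the other way with 0 counts in every mononucleated library and 1, 3 and 7 in binucleated libraries, at least 3.64-fold higher with a floor of 3 counts over the mononucleated group (limma adjusted p = 0.0284, n = 3 per class). So both directions occurred within 1 gene group. Among all 11 called genes 5 averaged under 20 counts per adult library, and with only the 10834 genes at or above that mean tested, 4 genes passed (Ndn, Psat1, Pdk3 and Slit2).

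**Figure D1:**
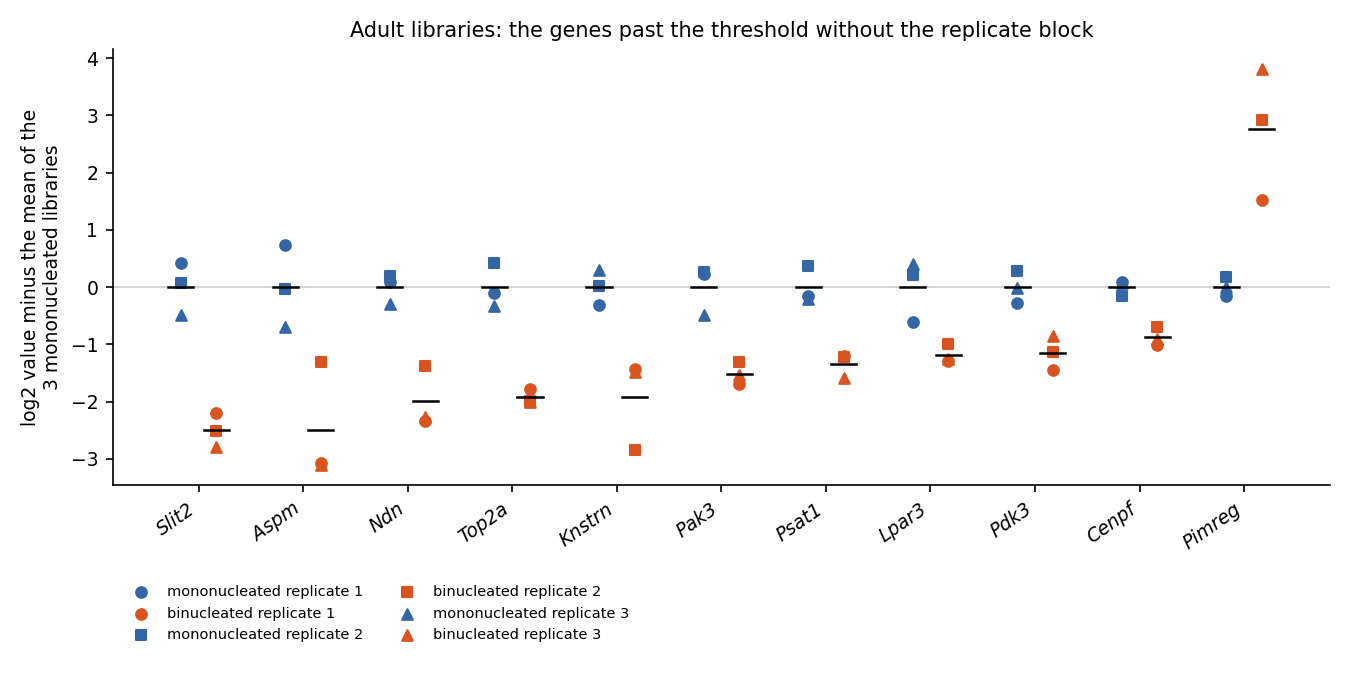
Log2 value of each adult library minus the mean of the 3 mononucleated libraries, for the 11 genes past the threshold of the limma test (blue mononucleated, orange binucleated, symbols for replicates 1 to 3, black bars for class means). In each gene the orange points lie all below or, in Pimreg, all above the blue ones.

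The calls differed in how far they rested on single libraries. Top2a and Ndn passed with any 1 of the 6 adult libraries left out, but Top2a did not pass in the adult libraries alone, with or without the block (limma adjusted p = 0.305 and 0.772). Psat1 and Pdk3 lost the call without mononucleated replicate 2 (limma adjusted p = 0.0641 for both), Knstrn without mononucleated replicate 2 or 3, and Slit2 without mononucleated replicate 1 or 2 or binucleated replicate 3 (0.0541 to 0.066). Cenpf lost it without any library other than binucleated replicate 2 (0.066 to 0.165), and Pimreg without any other than binucleated replicate 1 (0.066 to 0.0692). Lpar3 lost it without mononucleated replicate 2 or 3 or binucleated replicate 1 or 3, and Aspm and Pak3 without mononucleated replicate 1 or 2 or binucleated replicate 1 or 3.

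The other mitotic genes did not follow as a group. Of 70 genes of the G2/M and mitosis list, all measured, 2 were lower (Top2a and Cenpf) and 1 was higher (Pimreg). In 7 of the 70 (10%) the binucleated values lay all below the mononucleated ones, against 3.74% of all genes, and in 1 (1.43%) all above, against 2.51% of all genes. The list's median was -0.18, but 49 of the 70 averaged under 20 counts per adult library and the median of the others was 0.04. Mki67, the proliferation antigen, had 8, 13 and 16 counts in mononucleated and 9, 37 and 36 in binucleated libraries, so the classes overlapped (log2 difference 0.91 ± 0.42 SE with 3 libraries per class, limma adjusted p = 1). Ccnb1, the mitotic cyclin, had 2, 9 and 6 counts against 2, 1 and 3, and Cdk1, its kinase, had 9, 23 and 5 against 3, 18 and 12. Neither separated the classes. Aurkb, the kinase of the chromosomal passenger complex, had 1 count over the 3 mononucleated and 2 over the 3 binucleated libraries.

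Genes of cytokinesis, the step that binucleated cells have skipped, gave no call. Of 32 measured genes 0 passed the limma test, 21 had values below 0 and 11 above, and the median log2 fold change was -0.08. Anln, the contractile ring protein anillin, had 14, 16 and 16 counts in mononucleated and 12, 8 and 5 in binucleated libraries. Its classes did not overlap, but it did not pass (log2 difference -0.93 ± 0.37 SE with 3 libraries per class, limma adjusted p = 1). Racgap1 and Ect2, which direct RhoA to the cleavage furrow, had values of -0.09 ± 0.5 and -0.85 ± 0.58 SE, with 4 to 21 and 0 to 5 counts per library. Kif23, a kinesin of the central spindle, had 2, 0 and 0 counts against 3, 0 and 7.

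DNA replication genes did not pass either. All 54 genes of the DNA replication and G1/S list were measured, 0 passed, and the median log2 fold change was -0.14 (-0.07 with quantile normalization and -0.01 without mononucleated replicate 2). In 7 (13%) the binucleated values lay all below, against the background of 3.74%, and in 1 (1.85%) all above. Prim1, the primase subunit, had 22, 23 and 44 counts against 13, 13 and 9 (log2 difference -1.27 ± 0.29 SE with 3 libraries per class, limma adjusted p = 0.184). Chaf1b, a histone chaperone subunit at the replication fork, had 4, 3 and 6 against 0, 0 and 5, and Ccne2, a cyclin of S phase entry, had 101, 92 and 112 against 58, 56 and 77. Ccne2 separated the classes in every library and did not pass (log2 difference -0.69 ± 0.24 SE with 3 libraries per class, limma adjusted p = 0.999). Pclaf, a PCNA clamp partner, had 5, 11 and 1 counts against 1, 2 and 0, and passed with the replicate block (limma adjusted p = 0.0405 against 0.94 without it). Its log2 fold change of -1.9 ranged from -2.71 to -1.15 with 1 library left out.

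The regulators that switch the cell cycle on and off gave no call. Of 27 measured E2f, Rb and cyclin regulators 0 passed and the median was 0.01. E2f1, an activating E2F, had 22, 25 and 12 counts in mononucleated and 9, 9 and 7 in binucleated libraries (log2 difference -1.15 ± 0.33 SE with 3 libraries per class, limma adjusted p = 0.492). E2f8, an atypical repressor E2F that is linked to polyploidy, had 41, 40 and 34 against 16, 23 and 35. Its classes were separate only after scaling for depth, by 34 to 32.8 normalised counts (log2 fold change -0.7 ± 0.32 SE). E2f7, its partner, had 2 counts over each class. Rb1, the retinoblastoma gene that restrains E2F, stood at -0.06 ± 0.37 SE, its relative Rbl1 at -0.26 ± 0.28 SE, and the G1 cyclins Ccnd1 and Ccnd2 at -0.44 ± 0.49 and -0.17 ± 0.2 SE, with classes that overlapped in all 4 genes. Of 23 CDK inhibitors and p53 targets 0 passed, with 13 values below 0 and 10 above. Cdkn1a, the p21 inhibitor, followed the replicate number, with 1262, 2822 and 1240 counts in mononucleated and 999, 2973 and 992 in binucleated libraries. Phlda3, a p53 target that restrains Akt, had 104, 97 and 112 counts against 36, 57 and 67 (log2 difference -1.02 ± 0.21 SE with 3 libraries per class, limma adjusted p = 0.125, and 0.0601 with the block). Tnfrsf10b of the same list went the other way at low counts, with 2, 1 and 2 against 4, 12 and 12. Its classes did not overlap (log2 difference 2.06 ± 0.5 SE with 3 libraries per class, limma adjusted p = 0.224).

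Centrosome and nuclear envelope genes gave no call either. Of 28 centrosome and centriole genes 0 passed, with a median of 0. In 3 (10.7%) the binucleated values lay all below, against 3.74% of all genes, and in 2 (7.14%) all above, against 2.51%. Sass6, which builds the cartwheel of a new centriole, had 12, 20 and 12 counts in mononucleated and 24, 35 and 43 in binucleated libraries, and Stil, which recruits it, had 0, 2 and 0 against 5, 5 and 1. Sass6 did not overlap between the classes (log2 difference 1.17 ± 0.36 SE with 3 libraries per class, limma adjusted p = 0.614). Nin, a microtubule anchor of the mother centriole, had 233, 121 and 194 against 275, 253 and 289 (log2 difference 0.61 ± 0.22 SE with 3 libraries per class, limma adjusted p = 1). Among 31 nuclear envelope genes, with a median of -0.01, Lmnb1, the B-type lamin, stood at 0.67 ± 0.36 SE and Nup210, a membrane nucleoporin, at 0.79 ± 0.37 SE. In 2 of the 31 (6.45%) the binucleated values lay all below, among them Nup93 at -0.27 ± 0.19 SE, and in 1 (3.23%) all above. Cells of the 2 classes differ in their number of nuclei, and none of the 31 passed.

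All 35 gene lists were chosen with earlier results of these data known, so their shares describe the members and are no test. Among them, the conduction system list had the largest share of genes with binucleated values all below the mononucleated ones. Of its 24 genes 22 were measured and 19 had values below 0. In 8 (36.4%) the binucleated values lay all below the mononucleated ones, against 3.74% of all genes, and in 1 (4.55%) all above. In 12 (54.5%) all 3 same-numbered differences were negative, against 12.1% of all genes. The median log2 fold change was -0.48 (-0.39 with quantile normalization), and 1 gene passed without and 5 with the replicate block. With the block 25 genes of 12048 passed in all (0.208%), 24 lower and 1 higher.

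Slit2 (ENSMUSG00000031558), a secreted guidance cue, had 189, 117 and 90 counts in mononucleated and 28, 20 and 19 in binucleated libraries. It was 5.66-fold lower (log2 difference -2.5 ± 0.38 SE with 3 libraries per class, limma adjusted p = 0.0149). Cntn2, an adhesion molecule that marks Purkinje fibres and other conduction cells, had 11, 22 and 23 counts in mononucleated libraries and 0 in every binucleated one, at least 18.8-fold lower with a floor of 3 counts over the binucleated group. It passed with the block (limma adjusted p = 0.04, n = 3 per class) and not without it (0.327). Cacna1h, a T-type calcium channel, had 468, 203 and 212 counts against 112, 75 and 116, and Etv1, a transcription factor of fast-conducting myocytes, had 247, 309 and 274 against 140, 165 and 136. Neither overlapped between the classes. Kcne1, the auxiliary subunit of the slow delayed rectifier channel, had 817, 946 and 502 against 441, 476 and 334; its classes met once scaled for depth, at 502.2 and 518.4 normalised counts, while each binucleated library lay below its same-numbered partner. For Cacna1h, Etv1 and Kcne1 the limma adjusted p was 0.0473, 0.0473 and 0.0301 with the block, and 0.147, 0.284 and 0.459 without it (n = 3 per class).

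Other conduction genes separated the classes without passing either way. Scn10a, a sodium channel gene linked to conduction, had 48, 127 and 126 counts in mononucleated and 33, 17 and 25 in binucleated libraries (log2 difference -1.92 ± 0.44 SE with 3 libraries per class, limma adjusted p = 0.184). Gja5, the gap junction protein connexin 40 of atria and Purkinje fibres, had 53, 58 and 83 against 20, 19 and 28 (log2 difference -1.52 ± 0.45 SE with 3 libraries per class, limma adjusted p = 0.61). Hcn4, the pacemaker channel, did not separate them, with 182, 62 and 79 counts against 112, 104 and 63 (log2 fold change -0.11 ± 0.55 SE). The transcription factor Irx5, which shapes repolarisation across the ventricular wall, had 405, 384 and 320 against 238, 237 and 216 (log2 difference -0.69 ± 0.2 SE with 3 libraries per class, limma adjusted p = 0.555). None of the 5 conduction genes passed without mononucleated replicate 2, and none passed under the block with any 1 same-numbered pair left out.

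**Figure D2:**
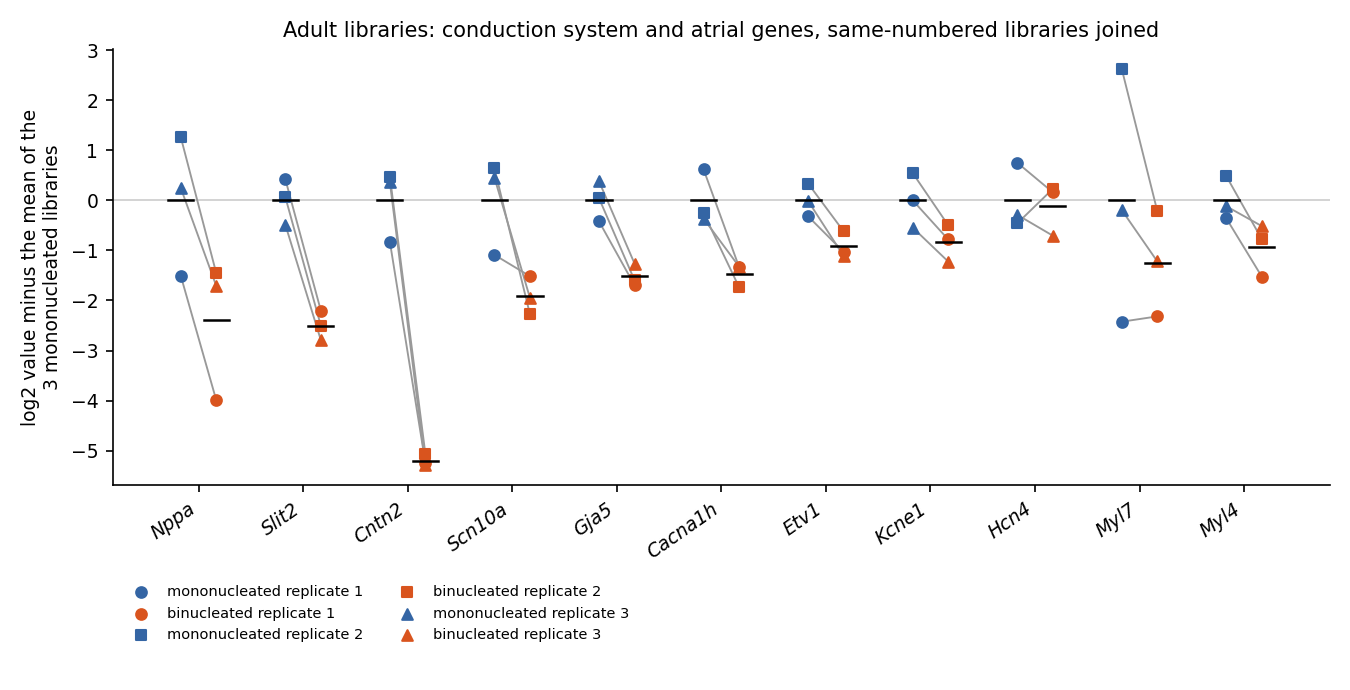
Log2 value of each adult library minus the mean of the 3 mononucleated libraries for conduction system and atrial genes (blue mononucleated, orange binucleated, grey lines joining same-numbered libraries, black bars class means). The lines fall in all 3 pairs in 9 of the 11 genes, while Hcn4 and Myl7 have at least 1 line that rises.

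The gene whose call depended most on the pairing was Nppa (ENSMUSG00000041616), the atrial natriuretic peptide, made in atria and in the trabecular and stressed ventricle. It had 87, 473 and 264 counts in mononucleated and 14, 74 and 72 in binucleated libraries. Mononucleated replicate 1 lay close to binucleated replicates 2 and 3, and the classes overlapped after scaling for depth, but the same-numbered differences were -2.49, -2.72 and -1.96 on the log2 scale. The fold change was 5.24-fold lower (log2 fold change -2.39 ± 0.72 SE, n = 3 per class), with a limma adjusted p of 0.61 without and 0.00355 with the block, and of 0.205 with the block as a random effect. Single libraries moved its size: the log2 fold change was -1.59 without binucleated replicate 1, -1.76 without mononucleated replicate 2 and -3.14 without mononucleated replicate 1. With the block, Nppa passed with any 1 of the 3 pairs left out (limma adjusted p 0.0142 to 0.0319, n = 2 per class), as did Top2a and Ndn.

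Some markers of atria, blood and mesothelium were also highest in mononucleated replicate 2. Among whole lists this held for the erythroid, epicardial, fibroblast and Schwann cell lists, and not for the atrial and leukocyte lists. The summed normalised counts of the erythroid list were 546, 797 and 635 in mononucleated and 609, 604 and 617 in binucleated libraries. Those of the epicardial list were 64, 157 and 115 against 86, 143 and 132. The summed normalised counts of the atrial and secretory list were 30698, 28866 and 23874 in mononucleated libraries. Those of the leukocyte list were 390, 311 and 512. Of 20 atrial and secretory genes 15 were measured, with a median of -0.56 (-0.31 with quantile normalization, -0.12 among those with at least 20 counts), and Nppa was the only one to pass, with the block. Sln, the atrial regulator of the calcium pump, had 0, 43 and 17 counts in mononucleated and 0, 2 and 1 in binucleated libraries, and Myl7, the atrial light chain, had 2, 65 and 10 against 2, 9 and 5. Myl4, the atrial essential light chain, had 49, 70 and 52 against 20, 30 and 42 (log2 difference -0.94 ± 0.36 SE with 3 libraries per class, limma adjusted p = 1). Bmp10, of the right atrium, was at 0 in all 6 libraries. The globin gene Hba-a1 had 0, 87 and 26 counts against 0, 9 and 23, and the mesothelial gene Msln had 0, 34 and 14 against 0, 5 and 15. By normalised counts, Nppa, Scn10a, Cntn2, Etv1 and Kcne1 were highest in mononucleated replicate 2 too. Slit2, Cacna1h and Hcn4 were highest in mononucleated replicate 1, and Gja5 in mononucleated replicate 3. The part of atrial tissue in the values of Nppa and of the conduction genes was not tested.

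Markers of further cell types are given by their summed levels. The summed normalised counts of the 16 measured fibroblast markers ranged from 2663 to 3950 over the mononucleated class and from 2102 to 3419 over the binucleated class, with Dcn at 255, 383 and 358 counts against 161, 282 and 298. Of 21 endothelial markers 0 passed, but 5 (23.8%) had binucleated values all above the mononucleated ones, against 2.51% of all genes, and in 11 (52.4%) all 3 same-numbered differences were positive, against 11.1% of all genes. Their median was 0.24 and their summed counts were 3281 to 4587 against 4041 to 4724. Emcn, the endothelial sialomucin, had 72, 59 and 68 counts against 92, 86 and 102. Of the 21 endothelial markers 17 had values above 0 and 4 below. Vwf, 1 of the 4, had 23, 18 and 32 counts against 3, 3 and 40. The 8 of 17 leukocyte markers that were measured summed to 311 to 512 against 235 to 312 (median -0.51, 0 passed), the 7 of 12 erythroid markers to 546 to 797 against 604 to 617, the 6 Schwann cell and neuronal markers to 536 to 696 against 414 to 506, the 12 pericyte and smooth muscle markers to 53926 to 59191 against 54046 to 56056, and the 7 epicardial markers to 64 to 157 against 86 to 143. None of these members was at 0 in all 6 libraries. Krt8, a keratin of the epicardium, had 3, 3 and 3 counts against 0, 0 and 0. The part of these cells in the class differences was not tested.

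The 4 measured Y-linked genes followed the replicate number. Ddx3y had 3649, 981 and 1272 counts in mononucleated and 3672, 1246 and 1988 in binucleated libraries, and Uty had 1375, 305 and 425 against 1305, 426 and 677. Replicate 1 was the highest in both classes for all 4 genes. The summed normalised counts were 6917, 2539 and 2381 against 7463, 2969 and 3570, higher in binucleated cells in all 3 pairs, and 0 of the 4 genes passed.

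**Figure D3:**
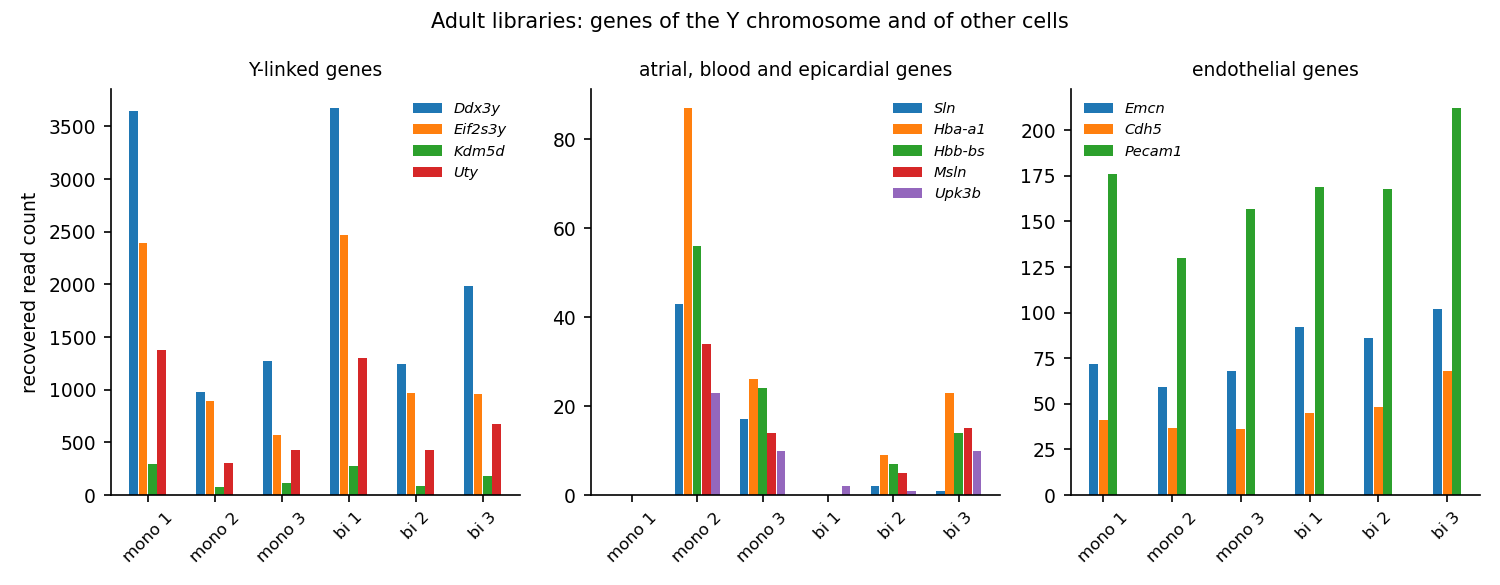
Recovered read counts of Y-linked genes (left), of atrial, blood and epicardial genes (middle) and of endothelial genes (right) in the 6 adult libraries, with 1 bar per gene and library and a separate vertical scale per panel. Y-linked genes are highest in replicate 1 of both classes, and the middle genes are highest in mononucleated replicate 2 and at 0 to 2 counts in replicate 1.

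Among imprinted and fetal genes there was 1 call. Ndn (ENSMUSG00000033585), the growth-restraining protein necdin expressed from the paternal allele, had 153, 131 and 105 counts in mononucleated and 26, 45 and 28 in binucleated libraries. It was 3.99-fold lower (log2 difference -2 ± 0.23 SE with 3 libraries per class, limma adjusted p = 0.00193), and it passed without mononucleated replicate 2 (0.0163). The other 23 measured genes of the 24 in the fetal growth and imprinted list did not pass, and the list's median was -0.14 (-0.01 without binucleated replicate 3). Plagl1, an imprinted zinc finger gene, had 74, 155 and 160 counts against 45, 75 and 41 (log2 difference -1.25 ± 0.3 SE with 3 libraries per class, limma adjusted p = 0.219), and Zim1, another, had 35, 42 and 25 against 16, 17 and 12. Mest did not separate the classes, with 26, 10 and 24 counts against 21, 14 and 24. Among 26 fetal isoform and stress genes the median was -0.08. Acta2, the smooth muscle actin that fetal cardiomyocytes express, had 4237, 3796 and 4148 counts against 2138, 2832 and 2292, a fold of 1.7 in which no library of 1 class reached the other (log2 difference -0.77 ± 0.2 SE with 3 libraries per class, limma adjusted p = 0.317, and 0.0505 with the block). Ankrd1, a stretch-responsive titin partner, stood at -0.4 ± 0.17 SE and Myh7, the slow fetal myosin heavy chain, at -0.47 ± 0.41 SE.

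The contractile apparatus gave no call. Of 38 measured excitation-contraction and sarcomere genes 0 passed, 20 had values above 0 and 18 below, and the median was 0.01. In 0 of the 38 were the classes apart in either direction, against 3.74% and 2.51% of all genes. Myh6, the adult myosin heavy chain, had 414878, 268525 and 320350 counts in mononucleated and 362791, 296554 and 386995 in binucleated libraries (log2 fold change 0.06 ± 0.34 SE). Myl2, the gene whose promoter drives the Cre, stood at 0.01 ± 0.21 SE, Tnnt2, cardiac troponin T, at -0.04 ± 0.14 SE and Ryr2, the calcium release channel, at 0.09 ± 0.17 SE. Casq1, the skeletal-type calcium buffer calsequestrin 1, was an exception outside that list, with 466, 369 and 579 counts against 171, 124 and 216. It was 2.81-fold lower with no overlap (log2 difference -1.49 ± 0.35 SE with 3 libraries per class, limma adjusted p = 0.205, and 0.0104 with the block).

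Metabolic genes showed 2 calls, both lower. Psat1, which makes serine from a glycolytic intermediate, had 54, 62 and 47 counts in mononucleated and 24, 21 and 19 in binucleated libraries, and was 2.53-fold lower (log2 difference -1.34 ± 0.2 SE with 3 libraries per class, limma adjusted p = 0.0118). Pdk3, a kinase that shuts pyruvate dehydrogenase, had 91, 106 and 98 against 37, 41 and 58, and was 2.21-fold lower (log2 difference -1.15 ± 0.16 SE with 3 libraries per class, limma adjusted p = 0.0118). Pdk3 was the 1 gene of 36 in the glycolysis and glycogen list to pass. Ucp2, a mitochondrial carrier, had 1588, 1890 and 1827 counts against 543, 878 and 1068, apart in every library, with a limma adjusted p of 0.242 without and 0.0286 with the block (n = 3 per class). Fatty acid oxidation genes, the main fuel pathway of adult myocytes, stood slightly above 0 in 39 of 42, with a median of 0.08 (0.05 with quantile normalization). In 18 of them (42.9%) all 3 same-numbered differences were positive, against 11.1% of all genes, and in 3 (7.14%) the binucleated values lay all above, against 2.51%. None of the 42 passed, and the highest was Acot2, a mitochondrial thioesterase, with 1282, 1282 and 1591 counts against 1614, 2117 and 1927 (log2 difference 0.43 ± 0.21 SE with 3 libraries per class, limma adjusted p = 1). Its neighbour Acot1, with a near-identical sequence whose reads the counting could have shared, stood at 0.35 ± 0.21 SE, and Decr1, which reduces unsaturated acyl chains, at 0.15 ± 0.1 SE. For 58 oxidative phosphorylation genes the median was 0.02 (-0.01 with quantile normalization) and 0 passed.

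**Figure D4:**
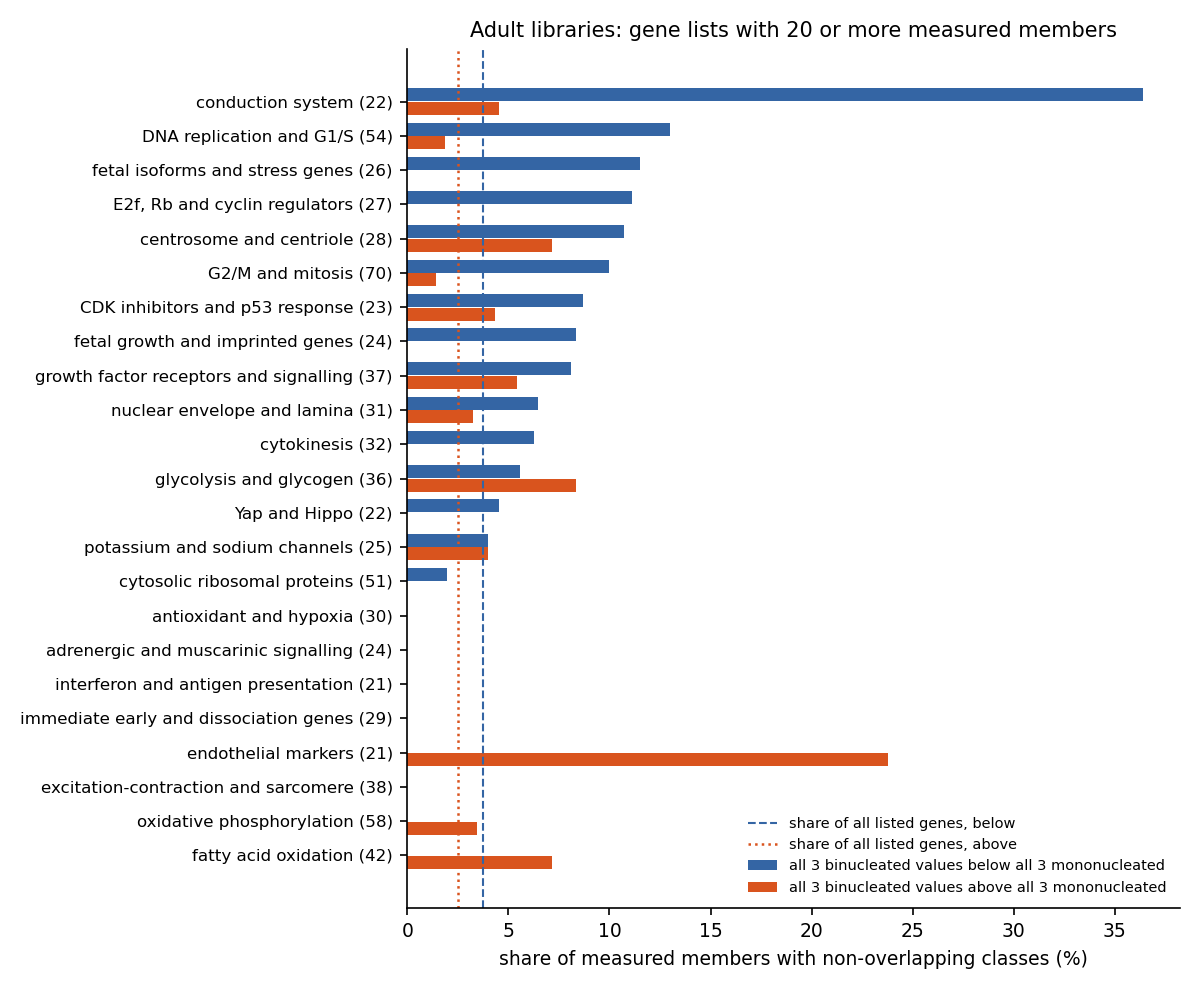
Share of the measured members of each gene list (number in brackets, lists with at least 20 measured members) in which all 3 adult binucleated values lay below (blue) or above (orange) all 3 mononucleated values; the dashed and dotted lines mark the same shares over all 12048 genes, 3.74% and 2.51%. The conduction system list stands at 36.4% below and the endothelial list at 23.8% above, while the sarcomere list is at 0% in both directions.

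Signalling genes gave the remaining calls. Lpar3, a receptor for lysophosphatidic acid, had 54, 76 and 98 counts in mononucleated and 31, 34 and 33 in binucleated libraries (2.26-fold lower, log2 difference -1.18 ± 0.2 SE with 3 libraries per class, limma adjusted p = 0.0333). Pak3, a kinase downstream of Rac and Cdc42, had 26, 21 and 14 against 6, 7 and 7 (2.85-fold lower, log2 difference -1.51 ± 0.25 SE with 3 libraries per class, limma adjusted p = 0.031), and with the block its limma adjusted p was 0.0627. Drd2, a dopamine receptor, had 46, 40 and 18 counts against 3 in each binucleated library, a count ratio of 11.6 (95% exact interval 5.9 to 26.1), and passed with the block alone (limma adjusted p = 0.0488, n = 3 per class). The secreted Wnt inhibitor Wif1 had 450, 467 and 370 counts against 260, 221 and 180, and the matricellular Wnt target Ccn4 had 79, 105 and 127 against 35, 48 and 60. Both passed with the block (limma adjusted p = 0.0301 and 0.0185, n = 3 per class) and not without it (0.145 and 0.122).

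Altogether 16 genes passed with the block and not without it, all lower in binucleated cells. In 11 of them the classes did not overlap, against 3.74% of all genes in that direction. The 16 were called from the same libraries, so this adds no support. With 1 same-numbered pair left out under the block, only Nppa among the 16 passed in all 3 cases, Casq1 and Cdk14 passed in 1 (without pair 1), and the other 13 passed in 0. Those not yet described were Cyp4b1, a fatty acid hydroxylase of the cytochrome P450 family (1415, 1708 and 1420 counts against 639, 802 and 821), Eef1a1, the translation elongation factor (643, 965 and 542 against 344, 382 and 328), Pdlim3, a Z-disc adaptor (502, 517 and 374 against 232, 318 and 238), Cdk14, a cyclin-dependent kinase of Wnt signalling (82, 130 and 24 against 30, 32 and 5), and Slc22a17, a lipocalin receptor (33, 27 and 59 against 13, 13 and 37). The log2 fold change of Cdk14 was -1 without binucleated replicate 3, -1.28 without mononucleated replicate 2 and -2.58 without mononucleated replicate 3, against -1.88 in all libraries. In Cdk14 and Slc22a17 the classes overlapped and only the same-numbered libraries differed in 1 direction. Eef1a1 has many processed copies in the genome, and the labels do not say how the counting treated reads shared by the copies.

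The genes with the largest differences among those whose classes did not overlap included further signalling genes that did not pass. Tgfb3, a TGF-beta ligand, had 147, 104 and 168 counts against 68, 46 and 116, Sdc4, a heparan sulfate co-receptor, had 132, 178 and 131 against 68, 88 and 75, and Trim47, a ubiquitin ligase, had 146, 167 and 94 against 70, 65 and 72. Their limma adjusted p were 0.825, 1 and 0.205 (n = 3 per class). Ncam1, a neural adhesion molecule, stood at -0.76 ± 0.22 SE with 211, 224 and 183 counts against 118, 134 and 116. Among the higher genes, the ciliary transport gene Ift140 had 97, 66 and 83 counts against 103, 103 and 137 (log2 fold change 0.47 ± 0.27 SE). Of 22 Yap and Hippo genes 0 passed, and Ajuba, a LIM protein that holds back Hippo kinases, stood at -0.66 ± 0.24 SE.

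Part of the adult difference ran in the direction seen at P7. At P7, 248 genes were lower in binucleated cells (2.06% of those tested). The P7 fold changes use no adult library, but the P7 test shares its estimate of the spread with the adult libraries. The 248 were therefore not chosen independently of the adult values. In the adult 177 of the 248 (71.4%) had values below 0, against 48.8% of all genes. In 62 (25%) the adult classes did not overlap in the lower direction, against 3.74% of all genes, and in 13 (5.24%) in the higher direction, against 2.51%. In 106 (42.7%) all 3 same-numbered adult differences were negative, against 12.1%. The sizes were smaller: the median log2 fold change of the 248 was -1.72 at P7 and -0.19 in the adult. The 248 were chosen by their P7 values, which favours a larger size at P7, so these medians are no test of a smaller adult difference. Of the 248, 3 passed in the adult without and 9 with the block. Among the 175 of them with at least 20 counts per adult library the share without overlap was 28%, against 3.33% of all genes at that depth. Across the 9036 genes in the upper 75% by adult mean, the log2 fold changes of the adult correlated at r = 0.27 with those of P7 and at r = -0.02 with those of E18.5; genes are not independent replicates.

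The 3 genes were Top2a (log2 fold change -1.45 ± 0.23 SE at P7), Ndn (-1.14 ± 0.23 SE) and Slit2 (-2.73 ± 0.38 SE). For none of them did the class difference in the adult differ from that at P7 by the test of the difference (limma adjusted p = 1, 0.701 and 1, n = 3 per group), which does not show that the differences were alike. Etv1 stood at -2.13 ± 0.23 SE at P7 and -0.92 ± 0.23 SE in the adult, Scn10a at -2.61 ± 0.44 and -1.92 ± 0.44 SE, and Gja5 at -2.95 ± 0.45 and -1.52 ± 0.45 SE. Of the 22 conduction genes 7 were lower in binucleated cells at P7 by the same test, which called 2.06% of all genes lower.

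**Figure D5:**
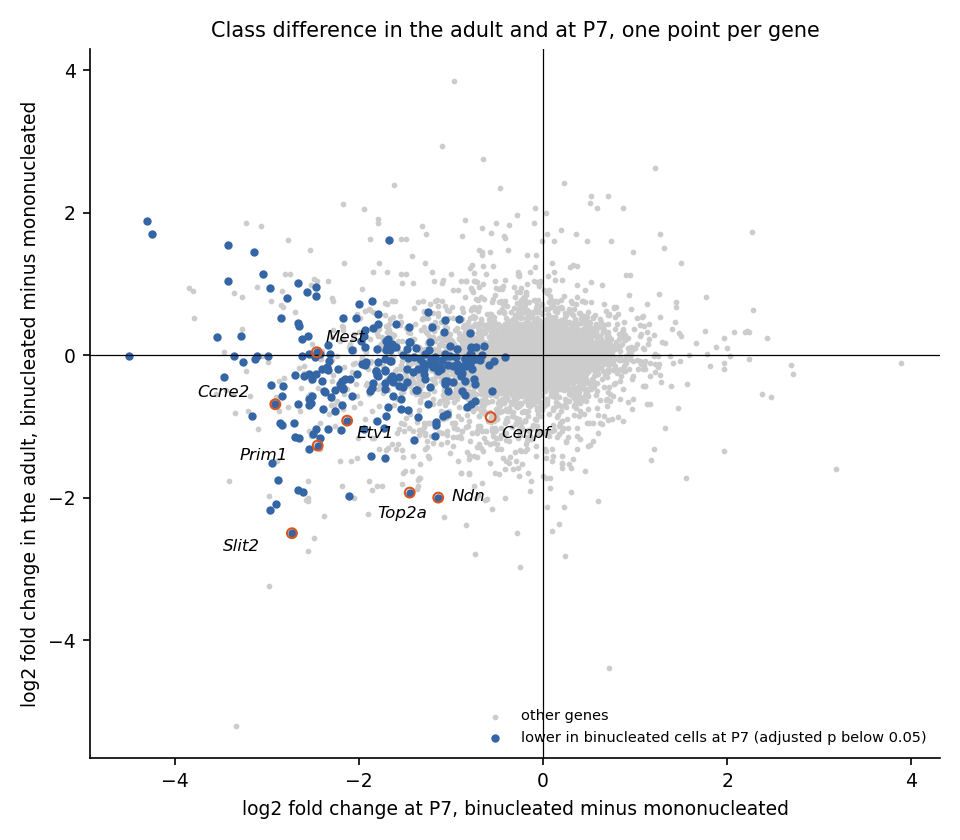
Log2 fold change between binucleated and mononucleated cells at P7 (horizontal) and in the adult (vertical), 1 point per gene, blue for the 248 genes lower at P7 and orange rings for genes named in the text. Of the blue points 177 lie below 0 in the adult. Their median is -1.72 at P7, the age at which they were chosen, and -0.19 in the adult.

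The test of the difference between ages found 25 genes whose class difference was not the same in the adult as at P7 (0.208% of 12048). All had an adult difference that was more positive, and 23 of them were among the 248. The P7 values that chose the 248 also enter this test and favour a positive sign there, so the overlap adds no support. Ccne2 and Ccne1, the E-type cyclins that start S phase, are examples of the 25. Ccne2 had a log2 fold change of -2.91 ± 0.24 SE at P7 and -0.69 ± 0.24 SE in the adult (difference 2.21 ± 0.33 SE, n = 3 per group, limma adjusted p = 0.0163), and Ccne1 of -2.35 ± 0.28 and -0.17 ± 0.28 SE (difference 2.19 ± 0.39 SE, limma adjusted p = 0.034). Mest, an imprinted gene of fetal growth, stood at -2.46 ± 0.26 SE at P7 and 0.04 ± 0.26 SE in the adult (difference 2.5 ± 0.37 SE, limma adjusted p = 0.0163). Pimreg stood at -0.65 ± 0.45 SE at P7 (difference 3.41 ± 0.63 SE, limma adjusted p = 0.0417). With the block the limma adjusted p was 0.0547 for Ccne2 and 0.0713 for Pimreg, and 12 genes passed. Ccne1 and Pimreg did not pass without mononucleated replicate 1 or 3 or without binucleated replicate 2 or 3 (limma adjusted p at most 0.0891 for both).

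Against E18.5 the difference ran the other way. There were 19 genes (0.158% of 12048), all with a more negative class difference in the adult. At E18.5 the median log2 fold change was 3.86 for leukocyte, 2.93 for fibroblast and 2.59 for endothelial markers. It was 0 for cardiomyocyte, 0.07 for pericyte and smooth muscle, and -0.01 for Schwann cell and neuronal markers. Of the leukocyte list 2 genes passed this test, and of the fibroblast list 2. The part of other cells in the E18.5 class difference was not tested. Cenpf, with normalised counts of 936.6 in mononucleated and 2484 in binucleated E18.5 libraries and 1429 and 783.6 in the adult, turned from a log2 fold change of 1.42 ± 0.15 SE at E18.5 to -0.87 ± 0.15 SE in the adult (difference -2.28 ± 0.21 SE, n = 3 per group, limma adjusted p = 0.000114). Differences of this kind were also found for Top2a (-2.26 ± 0.33 SE, limma adjusted p = 0.00785), Ndn (-2.51 ± 0.33 SE, 0.0038), Knstrn (-2.94 ± 0.45 SE, 0.0115), Aspm (-4.01 ± 0.63 SE, 0.0129), Psat1 (-1.59 ± 0.28 SE, 0.0243) and Ucp2 (-2.52 ± 0.4 SE, 0.0129). Binucleated replicate 1 at E18.5 stands apart from its group, and without it all 7 of these genes still passed (limma adjusted p 0.000176 to 0.0219). Leaving out single adult libraries ended the call of Psat1 (without mononucleated replicate 2 or binucleated replicate 1 or 3, limma adjusted p at most 0.0769) and of Ucp2 (without mononucleated replicate 2, 0.0648).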

How the data were processed

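For each library the authors deposited a table of log2 values for 12048 Ensembl identifiers. STAR, limma and build mm9 are named per the submitters' processing notes, without versions, counter or annotation. Per the labels' protocols, libraries were made with a TruSeq stranded mRNA kit and SMARTer amplification. The labels name no molecular identifiers, so count intervals and floors describe counting error alone. The deposited values were log2 of a read count plus 0.5 times 1 library factor; the recovered counts were whole within a tolerance of 0.001 for 100% of values. Normalised counts are scaled to the geometric mean factor of the 6 adult libraries. Symbols came from GENCODE M21 (11927 matched, 121 without a symbol).

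Limma 3.58.1 (R 4.3.3) was fitted to the deposited values of all 18 libraries with 6 group means and 12 residual degrees of freedom (trended empirical Bayes, two-sided, Benjamini-Hochberg over 12048 genes within a contrast, threshold 0.05), and was tested on simulated data. With the design fixed for log2 values, a fold change understates the change of low genes, because of the offset of 0.5. In the adult, deviations of same-numbered libraries from their class means correlated at 0.261 to 0.327, those of different numbers at -0.21 to -0.057, so the numbers were taken to pair the libraries. Since no label names separate animals, the p-values rest on a spread between samples that may be technical. Genes are named by a rule: those past the threshold without the block (up to 40) or with it (up to 25), up to 10 per direction with the largest change among genes with no overlap, 1 sign in all pairs and a mean in the upper 75%, up to 3 per list by p, and a fixed set of cardiac and cell cycle genes. Members and the 35 gene lists (863 of 962 genes measured) were chosen with earlier results of these data known.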

Additional observations from a re-analysis of the deposited data

Results flagged for a closer look

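For 11 genes named above the class difference (binucleated minus mononucleated) differed between the adult and a younger age by a test of the difference itself (limma, log2 scale, n = 3 per group, adjusted over 12048 genes). Against E18.5 the adult difference was lower by the following amounts. Top2a gave -2.26, Ndn -2.51, Psat1 -1.59, Knstrn -2.94, Cenpf -2.28, Aspm -4.01 and Ucp2 -2.52. Against P7 it was higher, by 3.41 for Pimreg, 2.21 for Ccne2, 2.19 for Ccne1 and 2.5 for Mest. Knstrn, Aspm and Pimreg rest on at most 14, 7 and 7 counts in any adult library. Over 10 alternatives each, Top2a, Ndn, Knstrn, Cenpf, Aspm and Mest passed in all 10, Ccne2 and Ucp2 in 9, Psat1 in 7, Ccne1 in 6 and Pimreg in 5.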

How the results depend on the processing

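In the adult, 11 genes passed the limma test. With the replicate block 25 passed (9 shared), 8 with the block in the adult libraries alone (2 shared), 30 (7 shared) with the block in the P7 and adult libraries, and 26 with it as a random effect. With the block in the adult libraries alone, Top2a (limma adjusted p = 0.305), Ccn4, Etv1, Pclaf, Kcne1 and Cacna1h were among those that did not pass. Settings without the block gave 0 in the adult libraries alone, 5 in the P7 and adult libraries, 23 without binucleated replicate 1 at E18.5, 0 with voom weights, 52 with array weights and 5 after quantile normalization. Median-of-ratios scaling gave 11, the filter of 10 counts in 3 libraries 9 and an offset of 2 counts 9. Leaving out 1 adult library gave 2 to 16. Chosen after seeing the data, a filter of 20 counts gave 4 (15 with the block) and leaving out 1 pair under the block gave 4 to 10.

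For adult against P7, 25 genes became 12 with the replicate block, 102 without binucleated replicate 1 at E18.5, 233 with array weights and 7 to 31 without 1 adult library. For adult against E18.5, 19 became 34 without that E18.5 library, 99 with array weights and 8 to 28 without 1 adult library; with the block it was 27. The cause of these shifts was not tested.

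No gene that passed, with or without the block, changed direction. The sign changed in 15 named genes, none past the threshold; most of their values were near 0, but Myl7 (-1.25) and Ect2 (-0.85) were not. With array weights Hcn4 was 0.11, Cdk1 0.085, Aurkb -0.4, Racgap1 0.28, Rb1 0.052, Mest -0.12 and Myl2 -0.0043, and after quantile normalization Racgap1 was 0.088, Myh6 0 and Myl2 -0.069. Leaving out 1 adult library gave -0.34 to 0.27 for Hcn4, -2.46 to 0.058 for Myl7, -0.48 to 0.16 for Ccne1, -0.77 to 0.52 for Cdk1, -0.5 to 0.76 for Aurkb, -0.67 to 0.55 for Racgap1, -1.58 to 0.047 for Ect2, -0.12 to 0.96 for E2f7, -0.33 to 0.36 for Rb1, -0.8 to 0.27 for Cdkn1a, -0.3 to 0.22 for Mest, -0.0011 to 0.15 for Myh6, -0.089 to 0.09 for Myl2, -0.13 to 0.028 for Tnnt2 and -0.043 to 0.26 for Ryr2. Under the block the values were, without pair 1 Hcn4 0.14, Cdk1 0.35, Racgap1 0.43, Myl2 -0.084, without pair 2 Ccne1 0.011, Racgap1 0.29, Ect2 0.33, E2f7 -0.36, Mest -0.14, Ryr2 -0.15 and without pair 3 Hcn4 0.049, Rb1 0.33. List medians moved by less than the spread between pairs in 787 of 840 recomputations. The conduction system median stayed between -0.69 and -0.37, that of G2/M genes between -0.43 and 0.04. Depth limits the mitotic genes, of which 49 of 70 average under 20 counts per adult library.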
